A study of Rattus norvegicus with 4 samples.

Results

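The 10 genes described here encode the enzymes that remove superoxide and peroxides: the superoxide dismutases Sod1, Sod2 and Sod3, catalase (Cat), the glutathione peroxidases Gpx1, Gpx3 and Gpx4, and the peroxiredoxins Prdx2, Prdx3 and Prdx6. They were chosen by gene name, by a rule that uses no measured value but was set with earlier results of these data known, and all 10 had a probe among the 16580 named rat genes on the array. They were read by 12 probes, since Gpx1 and Gpx4 each had 2. Vessels came from male rats of 2 genotypes, Wistar wild type (WT) and rats with the PKCbeta gene deleted (KO; PKCbeta is protein kinase C beta), each without treatment (control) or with angiotensin II (Ang II) for 24 h. This gave 4 groups with 1 array each, named by genotype and treatment (WT control, WT Ang II; KO control, KO Ang II), and values below follow that order unless labelled. The series text speaks of 4 male rats of each genotype, but the sources used here do not say whether an array holds 1 rat or a pool. They also do not name the vessel, the rats' age, the dose, or whether the deletion acts in every cell type.

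Superoxide is formed in vessels by NADPH oxidases, mitochondria and uncoupled nitric oxide synthase, and superoxide dismutases turn it into hydrogen peroxide. Catalase in peroxisomes then splits hydrogen peroxide. The glutathione peroxidases and the peroxiredoxins reduce hydrogen peroxide and lipid peroxides, with electrons from glutathione or thioredoxin. Ang II is known to raise superoxide formation in the vessel wall, in part through protein kinase C, and superoxide removes nitric oxide.

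Each array's values are log2 signals minus that array's 75th percentile over probes, called the scaled level below. The arrays had 40.6% to 43.5% of probes well above background, and their 75th percentile signals were 58.7 and 62.4 for WT without and with Ang II and 47.3 and 52.1 for KO. All 12 probes of the 10 genes were well above background on all 4 arrays, and none was saturated. Prkcb, the deleted gene, gave signals of 14.7 and 17.8 on the WT arrays with its brighter probe. On the KO arrays the signals were 1.93 and 1.88, neither of them well above background. Its second probe was well above background only in WT Ang II. Smooth muscle, endothelial and fibroblast markers were present on all arrays, as the label vessel requires: 9 of 9 smooth muscle markers, 5 or 6 of the 8 endothelial markers on the array and 7 of 7 fibroblast markers were well above background. Summed marker levels of other cell types, in multiples of the array's 75th percentile, were low for white adipocytes (1.03 to 3.07, with Lep, Lipe and Cidec not detected), brown adipocytes (0.79 to 1.59, with Ucp1 not detected), neutrophils (0.10 to 0.21, with S100a8 and S100a9 not detected), T cells (2.39 to 2.49), skeletal muscle (2.34 to 2.92) and Schwann cells (0.37 to 0.79).

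With 1 array per group, no single comparison has a test. Differences are described by size, at 1.5-fold and at 2-fold, and by a technical standard error (SE) from replicate spots of a probe on the same array, or, for a probe with a single spot, from the spot-to-spot SD of probes of like brightness. This error holds nothing of the spread between rats. The comparisons share arrays: WT control enters the response of WT and the genotype comparison without Ang II, and each other array likewise enters 2 comparisons, so their values are not independent of each other.

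**Figure D1:**
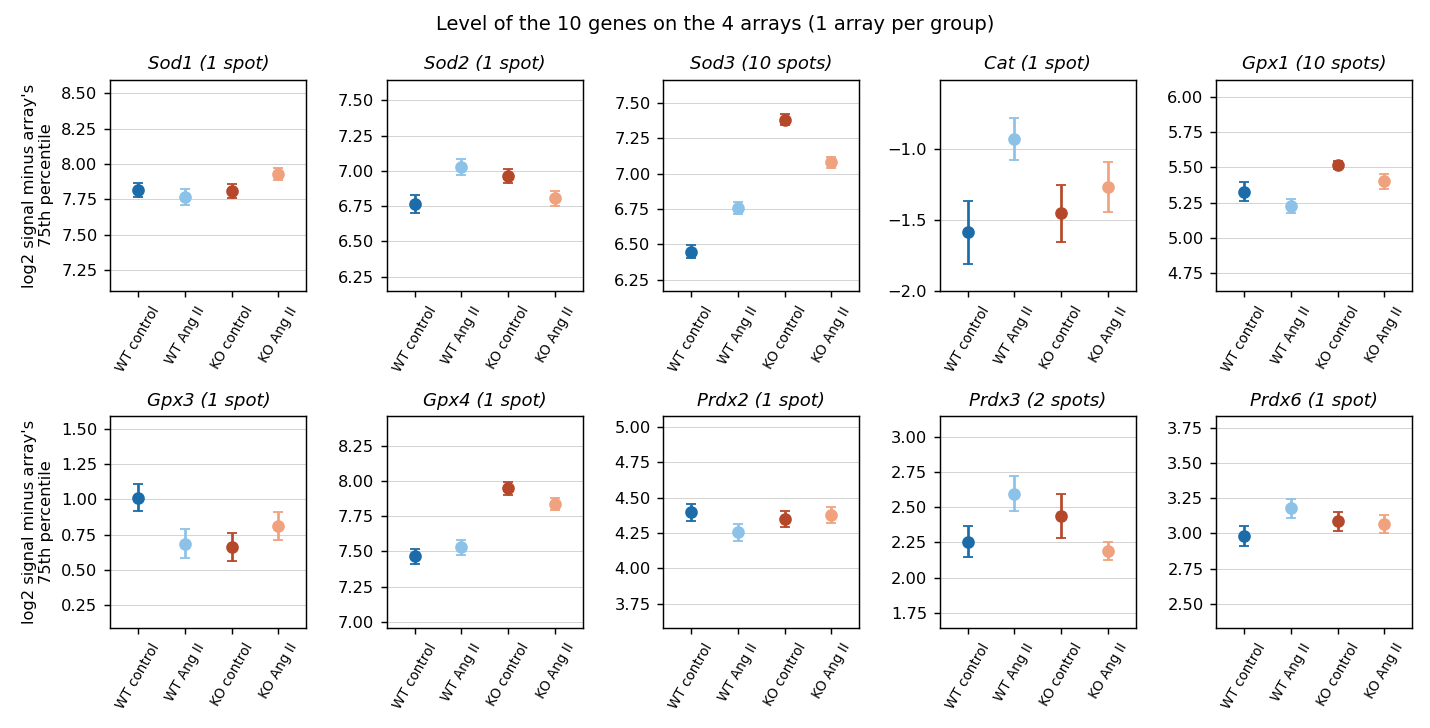
Scaled level (log2 signal minus the array's 75th percentile, y axis) of each gene's brighter or only probe on the 4 arrays (x axis); points are the array's value and bars are 1 SD between spots, taken from probes of like brightness where the probe has 1 spot. Each panel spans the same range of 1.5 log2 units, and Sod3 shows the widest separation, from 6.45 in WT control to 7.38 in KO control.

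Sod3, the extracellular superoxide dismutase that binds heparan sulfate in the vessel wall and is made there largely by smooth muscle, had the largest ratio between the genotypes among the 10 genes. Its signals were 5128 in WT control, 6748 in WT Ang II, 7903 in KO control and 7053 with Ang II in KO, with scaled levels of 6.45, 6.76, 7.38 and 7.08. WT control was lowest and KO control highest, with both Ang II arrays between them. The probe had 10 spots on every array, whose scaled levels ran from 6.34 to 6.50, from 6.69 to 6.82, from 7.34 to 7.44 and from 7.03 to 7.14, so the spots of no array overlapped those of another. Without Ang II, Sod3 was 1.91-fold higher in KO (log2 ratio 0.94, technical SE 0.020). It was the only one of the 10 genes past 1.5-fold in this comparison, where 10.9% of 9602 genes stood at least 1.5-fold above WT and 11.1% at least 1.5-fold below. At least as large a ratio in either direction was seen in 6.95% of genes. Sod3 also lay in the bright range, and among the 1666 genes with a scaled level of at least 4, 6.54% exceeded 1.5-fold upward. In the presence of Ang II the genotype ratio was smaller, at 0.32 (SE 0.018), and 0.17 under a normexp background correction.

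The Sod3 level on the Ang II array was above that of the control array in WT and below it in KO. In WT the log2 ratio was 0.31 (SE 0.021), and 34.2% of all genes had at least as large a ratio in either direction. In KO it was -0.30 (SE 0.017), a size reached by 21.4% of genes. The response in KO minus that in WT was thus -0.61 (SE 0.027), or 1.53-fold lower. Such a difference of at least 1.5-fold in this direction was found in 10.2% of the 8588 genes that could be compared on all 4 arrays, and in 6.25% in the other direction. Among genes with a scaled level of at least 4 the share was 4.38%. The value for Sod3 ran from -0.62 to -0.52 over 8 other ways of processing the arrays and stayed at least 1.5-fold under 5 of them, while the genotype ratio without Ang II stayed past 1.5-fold under all 8.

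Markers of cell types also differed between the arrays. The summed level of the smooth muscle markers, in multiples of each array's 75th percentile, was 143 in WT control, 137 in WT Ang II, 191 in KO control and 207 with Ang II in KO. Without Ang II all 9 were higher in KO, against 50.4% of all genes, with a median log2 ratio of 0.55 (all genes 0.01). Their ratios ran from 0.08 for Tagln to 1.15 for Cnn1, and Sod3 at 0.94 lay between Acta2 (0.77) and Cnn1. With Ang II the median was 0.56, above the ratio of Sod3. For Ang II itself the smooth muscle median was -0.03 in WT and 0.05 in KO, while Sod3 gave 0.31 and -0.30. Single smooth muscle markers moved in both directions. Lmod1 gave 0.51 in WT and -0.36 in KO, and Cnn1 0.17 and -0.45. Synpo2 gave -0.17 and 0.52, and Tagln -0.15 and 0.35. For the difference of responses 4 of the 9 were above 0, against 44.0% of all genes. There 2 were at least 1.5-fold lower and 1 higher, against 10.2% and 6.25% of all genes. Summed macrophage markers were 56.7, 65.0, 29.8 and 36.4 in the order of the arrays above (8 or 9 of 10 well above background), fibroblast markers 487, 509, 373 and 324, and endothelial markers 23.6, 20.9, 18.0 and 19.6. Members of the last 2 lists did not all move alike. Without Ang II, Col1a1 (-1.52) and Kdr (-1.49) were lower in KO. Higher in KO were 2 of 7 fibroblast markers, Dcn (0.14) and Pi16 (0.50), and 1 of 6 endothelial markers, Vwf (0.14). White adipocyte markers, low on every array, summed to 3.07, 2.25, 1.03 and 1.53. Without Ang II all 4 detected were at least 1.5-fold lower in KO, against 11.1% of all genes. Of these, Adipoq, Retn and Fabp4 were not well above background in KO control. Myh1, a skeletal muscle marker, was well above background on the KO arrays only. Its log2 ratio was at least 1.66 without and 1.59 with Ang II. Of the 5 skeletal muscle markers detected, 4 were higher in KO without Ang II and 3 with it, against 50.4% and 46.2% of all genes. The part of these shifts in the Sod3 ratio was not tested. In whole tissue, fewer cells of a type and less RNA per cell cannot be told apart.

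**Figure D2:**
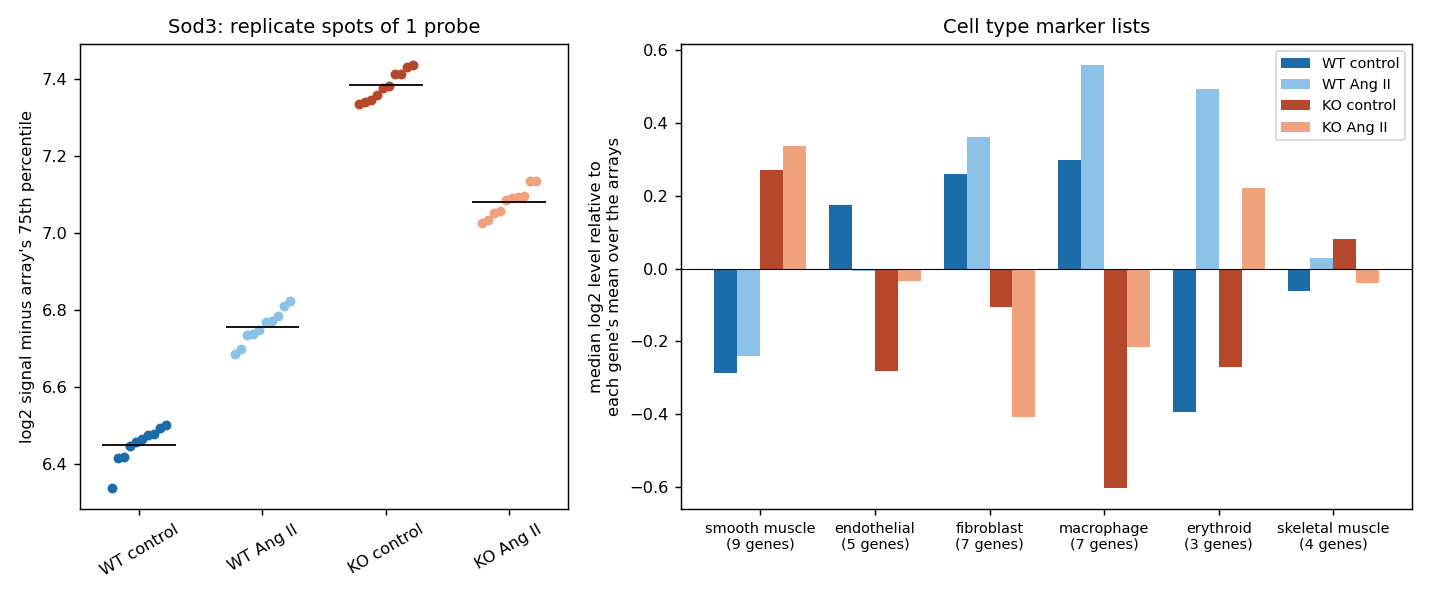
Left, scaled level (y axis) of the replicate spots of the Sod3 probe on each array (x axis), with their mean as a line. Right, median log2 level of each marker list on each array relative to each gene's own mean over the arrays, for lists with at least 3 genes well above background on every array. The Sod3 spots separate all 4 arrays, while the smooth muscle medians separate the genotypes and change little with Ang II. Single smooth muscle markers moved in both directions with Ang II.

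The mitochondrial enzymes Sod2, the manganese superoxide dismutase, and Prdx3, the peroxiredoxin that reduces hydrogen peroxide in the matrix, had the same signs as each other in all 5 comparisons, as did the cytosolic Prdx6, with smaller ratios. Sod2 had scaled levels of 6.76 in WT control, 7.03 in WT Ang II, 6.96 in KO control and 6.81 with Ang II in KO. WT Ang II was its highest array and WT control its lowest. Its log2 ratio for Ang II was 0.26 (SE 0.083) in WT and -0.16 (SE 0.071) in KO, a difference of -0.42 (SE 0.110). Prdx3 had scaled levels of 2.26, 2.60, 2.44 and 2.19, from 2 spots on each array. WT Ang II was again highest, and KO Ang II was lowest. Its log2 ratio for Ang II was 0.34 (SE 0.115) in WT and -0.25 (SE 0.118) in KO, a difference of -0.59 (SE 0.165), which is 1.503-fold. After Ang II, KO thus stood below WT for both genes, with log2 ratios of -0.22 (SE 0.077) for Sod2 and -0.41 (SE 0.099) for Prdx3. Without Ang II both were slightly above WT, at 0.20 (SE 0.078) and 0.18 (SE 0.133). Neither gene was past 1.5-fold in a comparison of single arrays. Under normexp, a background correction that adds an offset of 50 to the signals, the Sod2 ratio for Ang II in KO was 0.04. The Prdx3 genotype ratio without Ang II was -0.10. These 2 signs thus depend on the processing. That setting also reads median pixel signals and rescales each array, so the part due to background was not separated. The Prdx3 difference of responses stayed at least 1.5-fold under 4 of 8 other ways of processing the arrays.

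The 250 bases before the start sites of Sod2 and Prdx3 are shown, from RefSeq on the GRCr8 assembly, as those of the 2 mitochondrial enzymes. They were chosen after their values were seen, and the shared signs are not particular to them, since Prdx6 has them too. Both genes lie on chromosome 1 and on the minus strand, at chr1:50050169-50050418 for the Sod2 window and chr1:270000112-270000361 for the Prdx3 window. Capitals mark matches to the searched motifs, read 5′ to 3′ on the gene's strand.
Sod2: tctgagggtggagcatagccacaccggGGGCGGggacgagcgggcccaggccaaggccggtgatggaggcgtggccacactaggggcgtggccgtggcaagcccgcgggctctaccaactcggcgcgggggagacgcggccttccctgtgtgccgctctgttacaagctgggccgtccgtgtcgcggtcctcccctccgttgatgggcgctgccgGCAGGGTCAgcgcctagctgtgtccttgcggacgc
Prdx3: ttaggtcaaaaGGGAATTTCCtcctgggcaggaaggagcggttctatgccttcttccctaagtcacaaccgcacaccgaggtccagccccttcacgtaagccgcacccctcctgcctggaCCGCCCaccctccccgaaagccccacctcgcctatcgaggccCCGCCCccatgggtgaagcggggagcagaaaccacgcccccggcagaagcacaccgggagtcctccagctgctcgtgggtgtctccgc
In Sod2 the capitals are a GC box (GGGCGG), the element bound by Sp1, starting 223 bases before the start site, and a match on the opposite strand to the core of the antioxidant response element (TGACNNNGC), 35 to 27 bases before it. In Prdx3 they are a match to the NF-kB consensus, 239 to 230 bases before the start, and 2 GC boxes on the opposite strand, 130 to 125 and 88 to 83 bases before it. Both strands were searched, also for the TATA box (TATAAA) and the CArG box that serum response factor binds, and no printed matches overlap. Of 33469 windows of this length, 30.5% hold a GC box, 10.1% the antioxidant response core, 4.24% the NF-kB consensus, 12.9% the TATA box and 1.497% the CArG box. The windows are rich in G and C, with 71.6% for Sod2 and 64.8% for Prdx3 against a median of 51.2% over all windows. Among the 8 of the 10 genes with an entry, all but Cat had a GC box, Prdx3 and Gpx1 had the NF-kB consensus, Sod2 the antioxidant response core and Sod1 the TATA box, and none had a CArG box. A match describes these letters and does not show that a factor binds there.

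Cat, the haem enzyme that splits hydrogen peroxide in peroxisomes, had the largest ratio for Ang II in WT, on a dim probe. Its signals were 19.6 in WT control, 32.9 in WT Ang II, 17.3 in KO control and 21.7 with Ang II in KO, which is 2.45, 4.15, 2.08 and 2.64 times the lowest signal that counted as well above background on the same array. WT Ang II stood above the other three arrays. The log2 ratio for Ang II was 0.66 (technical SE 0.268), or 1.58-fold, in WT, and 0.19 (SE 0.269) in KO. Cat was the only one of the 10 genes at least 1.5-fold higher with Ang II in WT, a size reached by 7.49% of the 9805 genes compared, while 4.44% were at least 1.5-fold lower. Among the 1222 genes with a scaled level under -1, as dim as Cat on average, the share was 11.8%. Under the normexp background correction the Cat ratio was 0.21 and no longer passed 1.5-fold. Its genotype ratios were 0.13 (SE 0.302) without Ang II and -0.34 (SE 0.230) with it, and its response in KO minus that in WT was -0.47 (SE 0.380). Red cells also carry much catalase, and the summed level of erythroid markers was 19.2, 34.1, 20.4 and 28.9 on the arrays in the order above, from globin genes, with 4 of the 9 on the array detected. The red cell precursor markers Alas2, Slc4a1, Ahsp, Klf1 and Epb42 were not well above background on any array. The part of this in the Cat ratio was not tested.

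Sod1, the copper and zinc dismutase of the cytosol, stayed close to the same level throughout. Its scaled levels were 7.82 in WT control, 7.77 in WT Ang II, 7.81 in KO control and 7.93 with Ang II in KO. KO Ang II was highest, by no more than 0.16 (SE 0.071) over WT Ang II. The log2 ratio for Ang II was -0.05 (SE 0.075) in WT and 0.12 (SE 0.065) in KO, and without Ang II the genotypes differed by -0.01 (SE 0.070).

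Gpx4, the selenoenzyme that reduces phospholipid hydroperoxides in membranes and thereby holds back ferroptosis, was higher in KO on both of its probes. The brighter probe had scaled levels of 7.47 in WT control, 7.53 in WT Ang II, 7.95 in KO control and 7.84 with Ang II in KO. Both KO arrays lay above both WT arrays. The genotype ratio was 0.48 (SE 0.072) without Ang II and 0.31 (SE 0.069) with it, in each case under 1.5-fold. The second probe gave 4.16, 4.43, 4.40 and 4.57, with genotype ratios of 0.24 (SE 0.084) and 0.15 (SE 0.084), where KO control no longer exceeded WT Ang II. For Ang II the probes differed: the brighter gave 0.06 in WT and -0.11 in KO, and the second 0.26 and 0.17. No direction of an Ang II response is therefore given for Gpx4 in KO.

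Gpx1, the main glutathione peroxidase of the cytosol and mitochondria, had about 10 spots for each of its 2 probes. On the brighter probe the scaled levels were 5.33 in WT control, 5.23 in WT Ang II, 5.52 in KO control and 5.40 with Ang II in KO. On the second they were 4.59, 4.73, 4.90 and 4.82. Both KO arrays were above both WT arrays on each probe. Genotype ratios were 0.19 (SE 0.023) and 0.18 (SE 0.024) on the brighter probe and 0.31 (SE 0.022) and 0.09 (SE 0.019) on the second, without and with Ang II. Under normexp the brighter probe's ratio without Ang II was -0.01. For Ang II in WT the probes had opposite signs, -0.10 (SE 0.027) and 0.14 (SE 0.022), although each was several times its technical error. In KO they gave -0.11 (SE 0.019) and -0.08 (SE 0.019), so the second probe alone was above 0 in WT and below 0 in KO. The spot error thus does not cover what differs between probes of 1 gene. Over the 1611 genes with at least 2 probes, the median gap between probes was 0.233 for Ang II in WT and 0.266 for the genotypes without Ang II.

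Gpx3, the glutathione peroxidase secreted into plasma, had its highest level in WT control. Scaled levels were 1.01 in WT control, 0.69 in WT Ang II, 0.66 in KO control and 0.81 with Ang II in KO. The other arrays lay within 0.15 of each other, about the technical error of a ratio of this probe. The ratio for Ang II was -0.33 (SE 0.140) in WT and 0.15 (SE 0.141) in KO, and the genotype ratio was -0.35 (SE 0.139) without Ang II and 0.12 (SE 0.142) with it. The response in KO minus that in WT, 0.47 (SE 0.199), was the largest positive value among the 10 genes. Under normexp it was 0.14, with -0.10 for Ang II in WT.

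Prdx2, the cytosolic peroxiredoxin that is plentiful in red cells, and Prdx6, which also has phospholipase activity, showed small ratios. Prdx2 had scaled levels of 4.40, 4.25, 4.35 and 4.38. Its lowest array was WT Ang II, and all its ratios were between -0.14 (SE 0.087) and 0.17 (SE 0.118). Under normexp the Prdx2 genotype ratio without Ang II was -0.35 and its difference of responses 0.50. Prdx6 had scaled levels of 2.98, 3.18, 3.09 and 3.07. Its largest ratio in a comparison of single arrays was 0.20 (SE 0.098) for Ang II in WT, against -0.02 (SE 0.093) in KO.

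**Figure D3:**
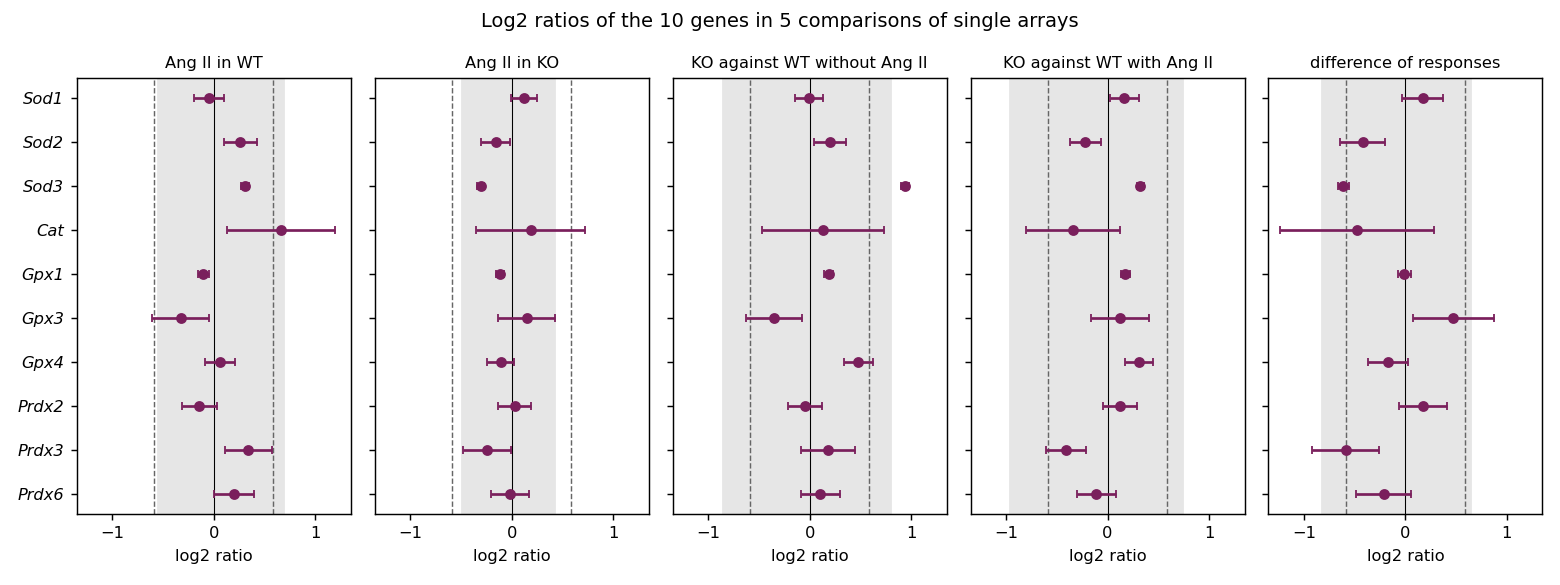
Log2 ratio (x axis) of each gene (y axis) in the 5 comparisons; bars are 2 technical SE, dashed lines mark 1.5-fold, and the grey band spans the 5th to the 95th percentile of all genes compared. Only Sod3 without Ang II lies outside the band; Cat in WT, and Sod3 and Prdx3 in the difference of responses, lie just past a dashed line.

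Over the 10 genes no ratio reached 2-fold. For Ang II in WT, 6 of 10 were above 0, with a median of 0.13 against 0.04 for all genes, and 2.32% of all genes were past 2-fold. For Ang II in KO, 4 of 10 were above 0, with a median of -0.06 against -0.0035. None was past 1.5-fold there, where 2.06% of 9266 genes were past 1.5-fold upward, 3.24% past it downward and 0.961% past 2-fold. Without Ang II, 7 of 10 were above 0 in KO against WT (median 0.16, all genes 0.01; 5.63% of genes past 2-fold). With Ang II, 6 of 10 were above 0 (median 0.12, all genes -0.03). None was past 1.5-fold in that comparison, against 9% higher and 14% lower among 9647 genes, and 6.21% past 2-fold. For the difference of responses 7 of 10 were below 0, with a median of -0.19 against -0.05, and 4.12% of genes were past 2-fold. Of all genes, 55.1% were above 0 for Ang II in WT and 48.8% in KO. For KO against WT the shares above 0 were 50.4% without and 46.2% with Ang II, and for the difference 44.0%.

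The sizes of the ratios, whatever their sign, can be set beside those of all genes. The median size over the 10 genes was 0.184 for the genotypes without Ang II and 0.198 with it, below the 0.303 and 0.307 of all genes. For Ang II it was 0.230 in WT, against 0.205, and 0.133 in KO, against 0.140. For the difference of responses it was 0.318, above the 0.240 of all genes. All of the 10 genes but Cat and Gpx3 had a scaled level above 2 on every array. Only Sod1, Sod2, Sod3, Gpx1, Gpx4 and Prdx2 were above 4 on every array. Bright genes gave smaller ratios. Over all genes with a scaled level of at least 4 the median size was 0.242 and 0.217 for the genotypes. It was 0.119 and 0.0936 for Ang II, and 0.161 for the difference of responses. For that difference Sod1, Sod2, Sod3, Gpx1, Gpx4 and Prdx2 gave 0.17, -0.42, -0.61, -0.01, -0.17 and 0.17, in that order. The dimmer Cat, Gpx3, Prdx3 and Prdx6 gave -0.47, 0.47, -0.59 and -0.21.

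**Figure D4:**
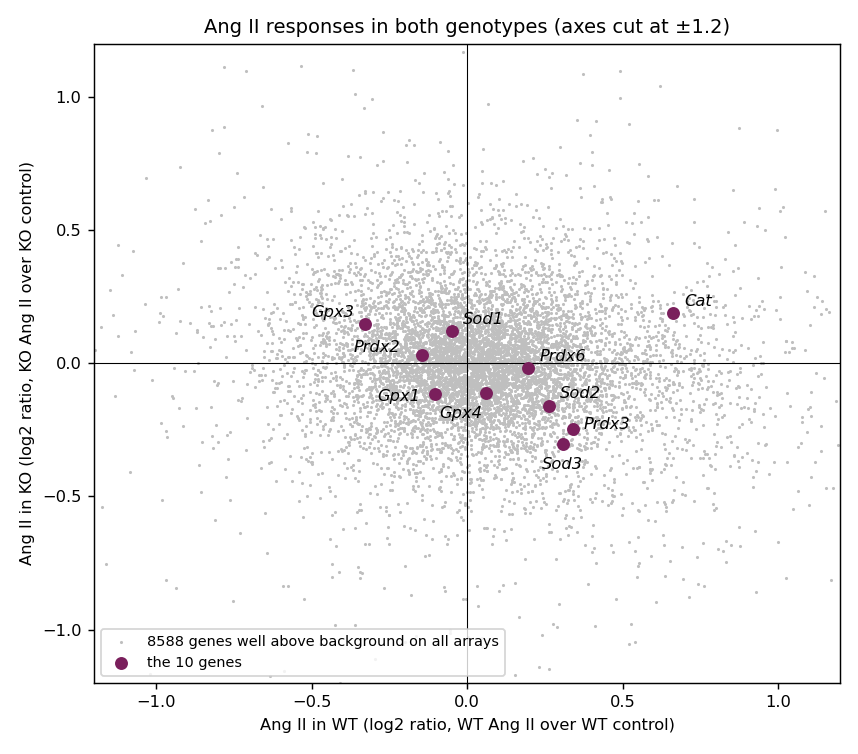
Log2 ratio for Ang II in WT (x axis) against that in KO (y axis) for the 8588 genes well above background on all arrays (grey) and the 10 genes (purple). Sod3, Prdx3 and Sod2 lie at the lower right, positive in WT and negative in KO, as do Prdx6 and Gpx4 with smaller ratios. Gpx3 lies at the upper left, as do Sod1 and Prdx2 with smaller ratios.

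Across all 4 arrays, a fit of genotype and treatment without their interaction leaves 1 residual degree of freedom, whose residual is the difference of responses itself. By limma's moderated test with Benjamini-Hochberg adjustment over 9379 genes, 0% of genes passed an adjusted p of 0.05 for genotype and 0% for treatment. At an unadjusted p of 0.05, 2464 genes (26.3%) passed for genotype, Sod3 among them, and 361 (3.85%) for treatment. Sod3 had a genotype coefficient of 0.63 (SE 0.213, limma adjusted p = 0.173) and was higher in KO in both comparisons. Gpx4 had 0.39 (SE 0.157, limma adjusted p = 0.212), also higher in both. The smallest adjusted p of any gene was 0.0664 for genotype. For treatment, Cat had the largest coefficient of the 10 genes, 0.42 (SE 0.190), and every limma adjusted p of the 10 was 0.99984. No difference in the 10 genes therefore passed the only test the design allows.

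Relatives of the 10 genes within the same families are given here without a test. Among them only Prdx4 had a genotype ratio larger in size than the 0.94 of Sod3 without Ang II. Prdx4, the peroxiredoxin of the endoplasmic reticulum, was lower in KO by a log2 ratio of -1.03 without and -1.13 with Ang II. Prdx1, a cytosolic peroxiredoxin, had ratios of 0.55 for Ang II in WT and 0.19 in KO, and of -0.44 and -0.79 for KO against WT without and with Ang II. Prdx5 gave 0.52 and 0.05 for Ang II in WT and KO, and 0.18 and -0.29 for KO against WT without and with Ang II. Gpx7 and Gpx8, glutathione peroxidases of the endoplasmic reticulum, were lower in KO, at -0.59 and -0.40 for Gpx7 and -0.20 and -0.46 for Gpx8.

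These relatives belong to a list of the peroxiredoxin, thioredoxin and glutathione system, which also holds electron donors of the enzymes and their regulators, with 19 genes detected of 28 listed. For Ang II in WT the list's median was 0.18, against 0.04 for all genes. In that comparison 3 of the 19 were at least 1.5-fold higher and 1 lower, against 7.49% and 4.44% of all genes. The higher ones were Glrx (glutaredoxin, 0.70), Txn2 (mitochondrial thioredoxin, the donor to Prdx3, 0.66) and Txnrd1 (cytosolic thioredoxin reductase, 0.61), and the lower one was Txnip (thioredoxin-interacting protein, -0.77). In KO the same genes gave -0.33, 0.05, 0.12 and 0.27. For Txn2 the difference of responses was -0.61, the same sign as for Prdx3 and Sod2. Txnrd2, the mitochondrial thioredoxin reductase, gave -0.07. In that comparison 5 of the list's 18 genes compared were above 0, against 44.0% of all genes. With Ang II, KO stood above WT for Gsr (glutathione reductase, 1.13) and below for Txnrd1 (-0.77). The list's median for KO against WT was -0.03 without and -0.25 with Ang II.

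Sources of superoxide and hydrogen peroxide, 14 detected of 22 listed, had a median of 0.18 for Ang II in WT and 0.10 in KO. Nox4, an oxidase that releases hydrogen peroxide and is expressed in smooth muscle, gave -0.72 for Ang II in WT and 0.29 in KO. KO stood above WT for Nox4, by 0.80 without and 1.81 with Ang II. Maoa, a mitochondrial amine oxidase, was higher with Ang II in WT (0.72), and Rac2, a subunit partner of the phagocyte oxidase, was lower in KO (-1.03 and -1.19). Aox1, aldehyde oxidase, was lower in KO without Ang II (-1.32). The list medians for KO against WT were -0.10 and -0.41.

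Genes that supply copper and manganese to the dismutases (8 detected of 10) had medians of 0.04 and 0.14 for Ang II in WT and KO and of -0.23 and -0.07 for KO against WT without and with Ang II. None of the 8 was past 1.5-fold for Ang II, which is near the share of all genes (7.49% higher and 4.44% lower in WT, 2.06% and 3.24% in KO) and is not a result about the list. Ccs, the copper chaperone of Sod1, gave 0.19 and 0.21 for Ang II in WT and KO and -0.26 and -0.24 for KO against WT. Slc39a8, a manganese and zinc importer, was lower in KO without Ang II (-0.89), and its relative Slc39a14 with Ang II (-0.74). Selenoprotein genes (17 detected of 20) had medians between -0.05 and 0.05 in all comparisons. Selenop, the selenium carrier of plasma, was lower with Ang II in WT (-0.82) and gave 0.14 in KO. Eefsec, the elongation factor that delivers selenocysteine, was higher in KO without (0.69) and with Ang II (0.95), as were Selenow (0.74) and Selenoo (0.72) without it.

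Peroxisome genes (17 detected of 24) had medians of -0.11 and -0.14 for Ang II in WT and KO, and 0.11 and -0.10 for KO against WT. Pex3, needed for peroxisome membrane assembly, was lower in KO without Ang II (-1.05). The 12 haem and iron genes had medians of 0.15 and -0.11 for Ang II in WT and KO, and Hpx (hemopexin) was lower in KO with Ang II than without (-0.82). Pxdn (peroxidasin) was the only haem peroxidase detected and was lower in KO, at -0.51 and -0.49.

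Regulators of antioxidant genes (11 detected of 16) had a median of 0.12 for Ang II in WT and 0.08 in KO. Higher with Ang II in WT were the NF-kB subunits Rela (0.78) and Nfkb1 (0.66), which gave 0.08 and -0.29 in KO, and lower was Foxo3 (-0.78), a forkhead factor known to activate Sod2 and Cat, which gave 0.36 in KO. Nfe2l2, which encodes the activator Nrf2, gave 0.35 in WT and 0.07 in KO. Bach1, a repressor at antioxidant response elements, was higher in KO, by 1.24 without and 1.34 with Ang II.

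**Figure D5:**
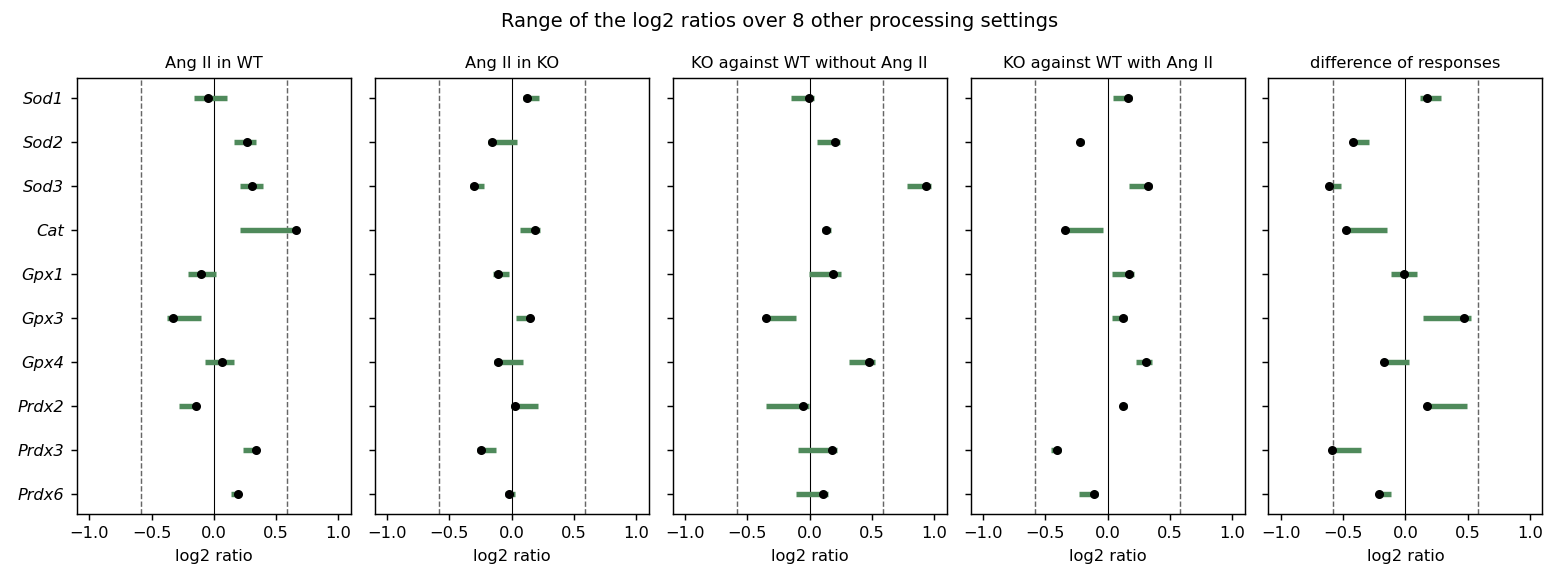
Range of each gene's log2 ratio (x axis) over 8 other ways of processing the arrays (green bars) beside the value reported (black points), for each comparison; dashed lines mark 1.5-fold. Sod3 without Ang II stays past 1.5-fold throughout, and Cat for Ang II in WT has the widest bar.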

How the data were processed

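Total RNA was labelled with Cy3 and hybridised to 1-colour Agilent arrays, per the labels' protocols. The deposited files hold spot intensity as written by Agilent Feature Extraction, with background subtracted within the array and no normalization between arrays, per the file headers. Its version is 12.1.1.1 in the submitters' processing notes and 10.7.1.1 in the headers. A value table deposited by the authors is on a log2 scale, and 98.0% to 98.1% of its entries per array lay within 0.01 of the log2 processed signal after a constant shift. Its column medians were 2.29 and 2.22 for WT without and with Ang II and 2.27 and 2.11 for KO, and the reason for the constants is unknown. The deposited flags for detection, saturation and outliers are other values of 0 or 1, per the file headers. All 4 arrays lay on 1 slide with 1 scan.

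Outlier spots (301 to 372 of 58717 per array) were left out, spots of a probe averaged, and log2 signals centred on the array's 75th percentile over 45594 probes. Probes were named by accession from a RefSeq table (21107 probes, 16580 genes); a gene took its brightest probe, and its other probes are given separately. A gene entered a comparison if well above background on at least 1 of its arrays, and a dim side was set to the array's lowest level well above background. Ratios were called at 1.5-fold and 2-fold. limma 3.58.1 (R 4.3.3) fitted genotype and treatment to genes detected on 2 arrays or more; the fit's steps were tested on simulated data. Other steps used Python 3.11.15, numpy 2.4.6 and pandas 2.3.3. The 8 alternatives included normexp correction, which used median pixel signals because the deposited files hold no mean signal column. The members, 8 pathway lists and 11 marker lists were chosen with earlier results of these data known. Named genes were all members, their family relatives, and up to 4 genes per list and comparison with the largest ratios of at least 1.5-fold measured on both arrays; some were left out for length, and a few others are given as members of the pathway with a known link to these enzymes (Ccs, Nfe2l2). Promoter windows came from RefSeq for 8 of 10 members. Precision is limited by having so few arrays.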

Additional observations from a re-analysis of the deposited data

Results flagged for a closer look

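Counting the brighter or only probe of each gene, for 3 genes the log2 ratio for Ang II lay above 0 in WT and below 0 in KO, each by more than 2 technical SE. The response in KO minus that in WT was -0.421 for Sod2 (0.263 in WT, -0.158 in KO), -0.612 for Sod3 (0.308 and -0.303) and -0.588 for Prdx3 (0.341 and -0.247). With 1 array in each group the difference was not tested. The share of all genes meeting this rule was not counted, so whether 3 of 10 is unusual cannot be told. Of all genes, 55.1% were above 0 for Ang II in WT, 48.8% in KO and 44.0% for the difference. For Sod2 the KO ratio was about the size of the median gap between probes of 1 gene in that comparison, 0.149. Under normexp the Sod2 ratio in KO was 0.043. Each difference of responses rests on all 4 arrays, so a departure of any 1 array enters all 3 genes. The second Gpx1 probe also had a ratio above 0 in WT (0.14) and below 0 in KO (-0.08), while its brighter probe gave -0.10 and -0.11.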

How the results depend on the processing

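No paired analysis was possible because each group has 1 array and the groups share only replicate number 1; for the same reason no array could be left out and no slide block fitted. Of the 10 genes, all 10 kept their sign under all 8 alternatives for KO against WT with Ang II, 8 for the difference of responses, 7 for Ang II in WT, and 6 each for the KO response and the genotype ratio without Ang II. Sod3 without Ang II ranged from 0.78 to 0.98. With normexp, whose offset of 50 by construction draws ratios of dim probes toward 0, no gene of the 10 was at least 1.5-fold higher for Ang II in WT (1 in the report), 1 was lower in the difference of responses (2 in the report), and the medians over the 10 were 0.0400 for the KO response (-0.0641), -0.0413 and 0.0355 for the genotype ratio without (0.157) and with Ang II (0.124), and -0.0417 for the difference (-0.193). With quantile normalization the median for Ang II in WT was 0.0440 (0.129). None of the 10 was at least 1.5-fold lower in the difference of responses, 0 in each case, with quantile normalization, with the 75th percentile of detected probes and with the median of detected probes. The cause was not tested.

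On the authors' value table the additive fit called 8 genes for genotype and the report's fit 0. Counts of all genes moved most with normexp. At least 1.5-fold higher and lower were 208 and 53 genes for Ang II in WT (734 and 435), 27 and 19 in KO (191 and 300), 169 and 520 between untreated genotypes (1047 and 1062), 164 and 615 with it (868 and 1350), and 190 and 234 for the difference (537 and 880). Restricting to genes well above background on all arrays gave 239 lower for Ang II in WT and 170 in KO.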
